A study of Mus musculus with 24 samples.

Results

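Lysosomes are the acidic compartments in which cells break down proteins, sugars, sulfated polysaccharides and lipids. Their soluble enzymes each cut 1 kind of bond, their membrane proteins shield the cell from those enzymes and carry the products out, and loss of a single enzyme causes a storage disease. Gentamicin, an aminoglycoside antibiotic that kills cochlear hair cells, is known to collect in lysosomes. Here 39 genes of lysosomal enzymes and membrane proteins were taken by symbol from a table of 24454 genes, and all 39 were found and passed the filter on low counts that left 16317 genes for testing. By role they comprised 4 membrane proteins, 4 channel and transport proteins, 9 proteases, 7 glycosidases, 6 mucopolysaccharide and sulfatide enzymes, 7 lipid enzymes and activators, and 2 regulators.

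The RNA came from the organ of Corti (OC), the hearing epithelium of the cochlea, dissected from P5 C57BL/6N mouse pups of both sexes, kept in culture for 24 h and then treated for 6 or 24 h. Explants received no drug (CTRL), 50 µM gentamicin (GM), 10 µM pioglitazone, a diabetes drug that activates PPAR-γ (PIO), or gentamicin together with pioglitazone (PIO+GM). Triplicate libraries were made in all 8 groups, each from 6 pooled OCs, and whether the pools of a group came from different animals is not given in the sources used here, so p-values measure the spread between these pools. All cultures, CTRL included, stayed in medium with fetal calf serum and penicillin.

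Library totals ranged from 7211357 to 15548856 counts. The smallest count of any lysosomal gene in any library was 44. The pools labelled PIO 6 h replicate 2 and PIO+GM 6 h replicate 3 had the fewest counts, and genes rich in G and C were low in both, with a correlation across genes of -0.63 and -0.47 between GC content and the deviation from the group mean. Lysosomal genes had a median GC content of 51.6%, against 49.8% over all genes tested. Markers of the labelled tissue were present in every library, with Myo7a, a hair cell myosin, at 30.9 to 95.6 CPM (counts scaled to a common library size) at 6 h and Sox2, a supporting cell factor, at 29.8 to 81.4 CPM at the same time. Because whole explants were lysed, a change in the number of cells of a type and a change in RNA per cell cannot be told apart.

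Many lysosomal genes carry in their promoters a palindromic E-box that the transcription factor TFEB binds, known as the CLEAR element, whose core is CACGTG. Promoter windows of 300 bases, from 250 before to 50 after an annotated start, were given by RefSeq on build GRCm38.p6 for 34 of the 39 genes. The 34 genes had 39 windows, so some had more than 1 start. A gene was counted if any of its windows held the motif. The core, which reads the same on both strands, was found in 12 of the 34 (35.3%), against 8.09% of the 27025 genes with a window and 10.9% of the 12624 genes that were also tested here. The longer forms contain the core and so overlap it: TCACGTG was found in 32.4% of the lysosomal genes, 4.29% of all genes and 6.35% of the tested genes, GTCACGTG in 29.4%, 2.55% and 4.26%, and TCACGTGA in 14.7%, 1.12% and 1.91%, on either strand. A match describes letters only and is not evidence of binding.

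The windows below, written 5′ to 3′ on the strand of the gene with each core in capitals, are those of 7 of the 12 holders. The first 5 belong to the genes that hold the core and rose from 6 to 24 h in every treatment, Lamp1 holds the most copies, and Ctsl holds 1 copy and was not called higher in any treatment.
Arsa: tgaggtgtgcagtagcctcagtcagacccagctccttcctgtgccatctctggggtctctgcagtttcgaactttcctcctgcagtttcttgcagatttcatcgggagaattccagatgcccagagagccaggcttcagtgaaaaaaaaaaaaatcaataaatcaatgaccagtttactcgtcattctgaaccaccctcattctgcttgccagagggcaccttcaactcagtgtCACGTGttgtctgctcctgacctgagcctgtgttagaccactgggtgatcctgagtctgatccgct
Ctsa: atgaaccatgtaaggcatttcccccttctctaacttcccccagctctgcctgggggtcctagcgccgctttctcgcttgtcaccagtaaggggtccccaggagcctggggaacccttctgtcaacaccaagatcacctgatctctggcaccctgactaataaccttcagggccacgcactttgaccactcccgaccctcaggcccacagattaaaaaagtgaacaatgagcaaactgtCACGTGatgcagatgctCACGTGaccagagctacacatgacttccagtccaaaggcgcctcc
Ctsd: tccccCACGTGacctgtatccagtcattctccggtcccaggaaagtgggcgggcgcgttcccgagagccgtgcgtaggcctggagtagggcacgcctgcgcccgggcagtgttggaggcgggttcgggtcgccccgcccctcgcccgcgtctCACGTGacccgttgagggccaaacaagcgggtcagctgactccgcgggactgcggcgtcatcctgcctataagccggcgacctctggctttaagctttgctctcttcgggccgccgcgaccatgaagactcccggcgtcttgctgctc
Glb1: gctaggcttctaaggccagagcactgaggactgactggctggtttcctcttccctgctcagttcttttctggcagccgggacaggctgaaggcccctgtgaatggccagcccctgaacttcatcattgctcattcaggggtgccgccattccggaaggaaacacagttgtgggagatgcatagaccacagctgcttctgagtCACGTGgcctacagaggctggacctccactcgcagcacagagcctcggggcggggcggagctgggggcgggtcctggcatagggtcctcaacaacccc
Naglu: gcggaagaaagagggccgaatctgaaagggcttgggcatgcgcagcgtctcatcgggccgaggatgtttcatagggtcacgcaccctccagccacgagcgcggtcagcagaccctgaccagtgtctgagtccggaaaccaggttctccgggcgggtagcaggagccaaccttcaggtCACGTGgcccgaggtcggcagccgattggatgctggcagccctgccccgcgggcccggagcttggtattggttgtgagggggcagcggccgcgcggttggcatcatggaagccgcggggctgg
Lamp1: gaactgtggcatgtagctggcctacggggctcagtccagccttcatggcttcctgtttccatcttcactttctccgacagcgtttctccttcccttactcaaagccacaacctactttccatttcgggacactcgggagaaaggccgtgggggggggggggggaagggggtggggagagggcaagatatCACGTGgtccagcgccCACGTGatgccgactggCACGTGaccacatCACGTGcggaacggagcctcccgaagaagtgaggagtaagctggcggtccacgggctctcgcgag
Ctsl: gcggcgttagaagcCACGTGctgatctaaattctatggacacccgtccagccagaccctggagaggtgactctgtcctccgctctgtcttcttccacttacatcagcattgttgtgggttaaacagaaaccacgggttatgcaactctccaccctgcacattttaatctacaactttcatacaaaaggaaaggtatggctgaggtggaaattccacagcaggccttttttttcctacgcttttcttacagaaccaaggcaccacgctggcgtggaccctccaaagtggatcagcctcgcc

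Arsa lies on the minus strand at chr15:89477375-89477674, with 1 core centred 13 bases before the start. The Ctsa window on the plus strand, chr2:164833523-164833822, holds 2 cores, 1 on each side of its start, 9 bases before and 8 after. That window lies inside the gene, which begins at 164832872. Ctsd, on the minus strand at chr7:142387778-142388077, holds cores 242 and 95 bases before the start. Those of Glb1, chr9:114400828-114401127, and Naglu, chr11:101069844-101070143, both on the plus strand, are centred 45 and 70 bases before the start. Lamp1, on the plus strand at chr8:13158911-13159210, holds 4 cores between 58 and 12 bases before the start. Ctsl, on the minus strand at chr13:64370471-64370770, has its single core near the far end, 233 bases before the start of this window. The whole window, core included, lies inside the gene, whose upstream end is at 64370772. The other holders were Mcoln1, Cln3 and Gla, with 2 cores each, and Gaa and Sgsh, with 1 each. The Cln3 window, like those of Ctsa and Ctsl, lies inside the gene.

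**Figure D1:**
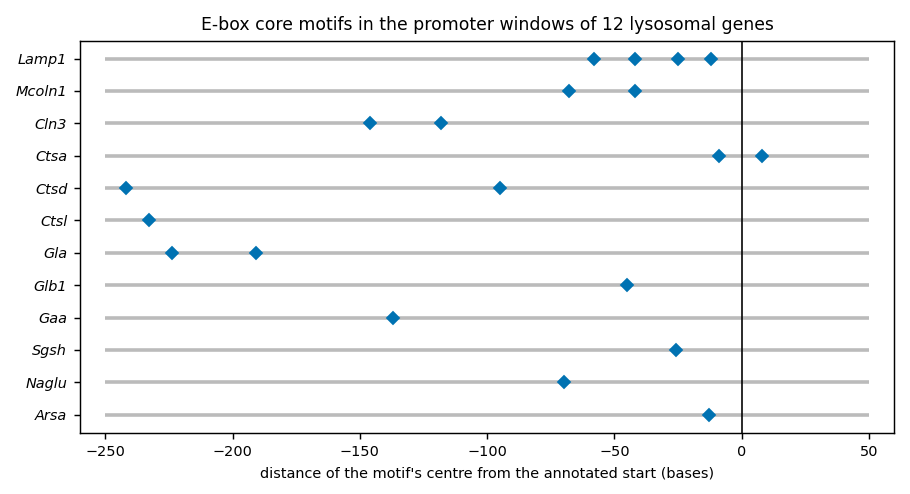
Position of each CACGTG core in the promoter windows of the 12 lysosomal genes that hold it. The x axis gives the distance in bases from the annotated start, grey lines span the window of 250 bases before to 50 after it, and each diamond is 1 core. Lamp1 holds 4 cores within 58 bases of the start, and the core of Ctsl lies 233 bases from the start of its window. The windows of Ctsl, Ctsa and Cln3 belong to starts inside the gene, so their distances are not from its outer end.

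Levels differed widely between the genes. Per length (RPKM, CPM divided by gene length in kilobases), the highest medians over the 24 libraries were those of Ctsd, an aspartic protease, at 265 and Psap, the precursor of the saposins that help enzymes reach lipids, at 250 RPKM. Lamp1, a main glycoprotein of the lysosomal membrane, stood at 169, the cysteine proteases Ctsl and Ctsb at 114 and 97.2, and the second membrane glycoprotein Lamp2 at 83.1 RPKM. The lowest medians were those of Idua, which removes iduronic acid from heparan and dermatan sulfate, at 4.41, Gla, which cuts galactose from glycolipids, at 5.24, and Sgsh, a heparan sulfamidase, at 5.77 RPKM. The order of neighbours was not fixed: Ctsd spanned 159 to 370 and Psap 144 to 331 RPKM, and the ranges of Idua (1.5 to 6.34), Gla (3.72 to 6.86) and Sgsh (2.35 to 7.16) overlapped.

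Many lysosomal genes were higher at 24 h than at 6 h, and 'rose' and 'fell' here mean higher or lower at 24 h. The 2 times were separate cultures, so an effect of time cannot be told apart from a difference between the sets of cultures. From 6 to 24 h the summed share of the lysosomal genes in all counts went from between 0.424 and 0.496% to between 0.538 and 0.637%. Every library at 24 h lay above every library at 6 h. In CTRL 20 of the 39 genes were higher at 24 h and 1 was lower (adjusted p under 0.05, edgeR quasi-likelihood test), where 14.8% of all genes tested were higher and 13.2% lower. The counts were 19 and 1 in GM (12.5% and 11.7% of all genes), 21 and 2 in PIO (13.2% and 15.8%), and 25 and 1 in PIO+GM (17.6% and 17%). The median log2 fold change of the 39 was 0.44, 0.45, 0.47 and 0.60 in CTRL, GM, PIO and PIO+GM, whereas the median over all genes lay between 0.01 and 0.03.

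The same 15 genes were higher at 24 h in all 4 treatments, compared with 6.97% of all genes, and 1, Cd63, was lower in all 4, compared with 7.24%. All 12 libraries at 24 h lay above all 12 at 6 h for 17 of the 39 genes, which held for 5.99% of all genes, and all 12 lay below for 1 gene, against 6.34%. In total 27 genes were higher in at least 1 treatment, 2 were lower in at least 1, and 10 passed in none. Of 90 calls over the 4 treatments, 64 were kept in each of the 6 fits that left out 1 library of the groups compared, and these covered all 4 calls of 10 genes: Arsa, Naglu, Galns, Hexa, Glb1, Ctsa, Ctsd, Ctsz, Tpp1 and Cd63. In PIO the number of genes called fell from 23 to 15 without PIO 6 h replicate 2, and it was 26 without PIO 6 h replicate 3. The share of all genes called moved as well, to 16.3% and 36.5%, beside 38.5% and 66.7% of the 39. Without both pools of fewest counts, 15 genes were higher and 1 lower in PIO, and 23 were higher and 2 lower in PIO+GM, where 19% and 37.8% of all genes were called, against 41% and 64.1% of the 39. The correlation across genes of the fold change with GC content was 0.03 in CTRL, 0.07 in GM, 0.31 in PIO and 0.35 in PIO+GM, and its part in the last 2 was not tested beyond removing a GC trend from each library, after which 24 and 26 genes were higher and 1 lower in each (64.1% and 69.2% of the 39, against 31.1% and 34.6% of all genes). That removal ended the calls of Ctsl (-0.38, adjusted p = 0.0779) and Smpd1 (0.38, adjusted p = 0.132) in PIO and of Lamp1 in PIO+GM (0.31, adjusted p = 0.066). Another scaling or filter ended those of Cln3, Ctsb and Gm2a in CTRL, Gaa and Man2b1 in GM, and Ctsl, Ppt1 and Smpd1 in PIO, with adjusted p between 0.0521 and 0.064 and fold changes close to those given below, such as 0.55 for Cln3, 0.36 for Ctsb and 0.42 for Ppt1.

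**Figure D2:**
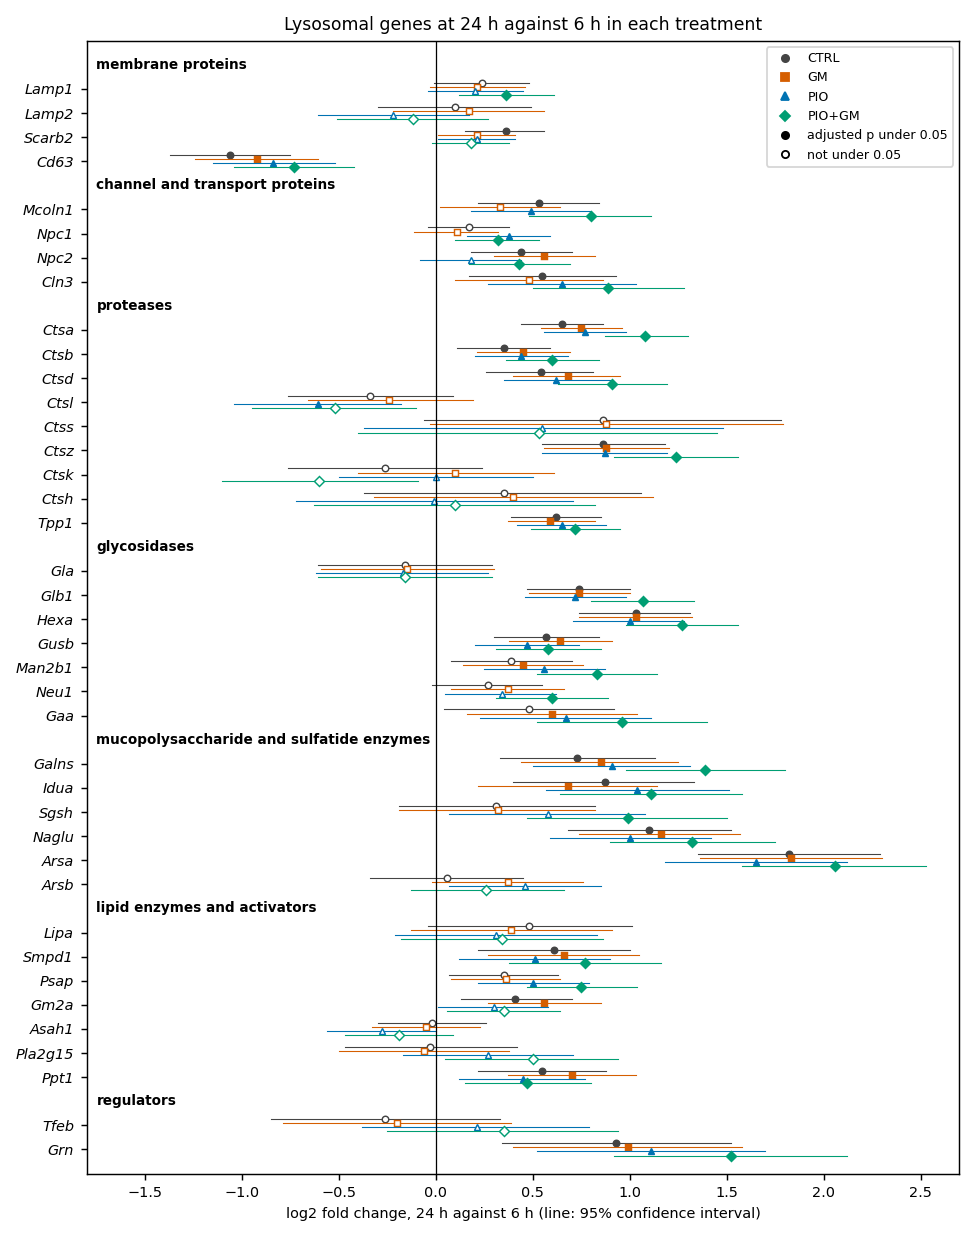
Log2 fold change of each of the 39 lysosomal genes at 24 h against 6 h (x axis) in CTRL, GM, PIO and PIO+GM, grouped by role. Points are the fitted values, lines their 95% confidence intervals, and filled points have an adjusted p under 0.05. Arsa lies farthest to the right, between 1.65 and 2.06, and Cd63 is the gene whose 4 points are filled on the left, between -1.06 and -0.73.

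Among the enzymes of mucopolysaccharides and sulfatides, 4 of 6 were higher at 24 h in CTRL, GM and PIO and 5 of 6 in PIO+GM, with medians of 0.80, 0.76, 0.96 and 1.22 on the log2 scale. Arsa, the arylsulfatase that desulfates the myelin lipid sulfatide, rose the most of all 39 genes. At 6 h its level was 11.6, 11.6 and 12.1 CPM in CTRL, 9.33, 9.68 and 16.9 in GM, 13.1, 8.46 and 18.1 in PIO, and 10.9, 8.82 and 10.1 in PIO+GM. At 24 h it was 41, 43.6 and 40.3 CPM in CTRL, 47.3, 43.6 and 37.3 in GM, 34.8, 47.6 and 43 in PIO, and 39.8, 44.2 and 40.1 in PIO+GM. The lowest library at 24 h thus lay well above the highest at 6 h, and at 6 h the 3 libraries of PIO+GM lay below those of CTRL. The log2 fold change was 1.82 ± 0.23 (SE) in CTRL (adjusted p = 1.77e-05), 1.83 ± 0.22 in GM, 1.65 ± 0.22 in PIO and 2.06 ± 0.23 in PIO+GM, that is 3.14 to 4.16 fold. An antisense gene, C230037L18Rik, covers 19.8% of the exon bases of Arsa, and whether the counting used the strand is not given in the sources used here.

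Naglu, which removes N-acetylglucosamine from heparan sulfate, held 12.5 to 28.1 CPM over the 12 libraries at 6 h and 41.4 to 51.2 CPM at 24 h, with no overlap. It rose 2.14 fold in CTRL, 2.23 fold in GM, 2.01 fold in PIO and 2.5 fold in PIO+GM, with a standard error of 0.20 on the log2 scale. Idua went from a median of 13.2 CPM (6.66 to 17.7) to 24.4 CPM (21.3 to 28.1), also without overlap, with log2 fold changes of 0.68 to 1.11. Galns, which desulfates keratan and chondroitin sulfate, went from 9.74 (6.87 to 14.5) to 18.9 CPM (17.4 to 23.7), with log2 fold changes of 0.73 to 1.39. The rise of Idua in GM, 0.68, was no longer called without GM 6 h replicate 2 or 3 or GM 24 h replicate 1 or 2 (0.57 to 0.70, adjusted p up to 0.145). Sgsh was called only in PIO+GM (0.99 ± 0.25), with 0.31, 0.32 and 0.58 elsewhere, and it shares 21.9% of its exon bases with Card14 on the opposite strand. Arsb, which desulfates dermatan sulfate, did not pass in any treatment (0.06 to 0.46), and 59.7% of its exon bases lie in antisense genes.

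Of the 9 proteases the same number, 5, were higher at 24 h in each treatment, and these were Ctsa, Ctsb, Ctsd, Ctsz and Tpp1. Ctsa, a carboxypeptidase that also stabilizes the sialidase Neu1 and the galactosidase Glb1, had the smallest p of all 39 genes in PIO and PIO+GM. At 6 h it stood at 134, 109 and 114 CPM in CTRL, 116, 108 and 120 in GM, 114, 96.9 and 128 in PIO, and 99.8, 94.5 and 89 in PIO+GM. At 24 h it stood at 195, 173 and 192 CPM in CTRL, 191, 189 and 198 in GM, 187, 193 and 198 in PIO, and 208, 196 and 196 in PIO+GM. Every library at 24 h exceeded every library at 6 h, and the 4 lowest libraries were the 3 of PIO+GM at 6 h and PIO 6 h replicate 2. The log2 fold changes were 0.65 ± 0.10, 0.75 ± 0.10, 0.77 ± 0.10 and 1.08 ± 0.10 (adjusted p between 1.34e-06 and 0.000143). Neurl2 and Pltp on the opposite strand cover 22.3% of its exon bases.

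Ctsd held 469, 452 and 371 CPM in CTRL at 6 h and 652, 547 and 674 CPM at 24 h, 396, 374 and 489 against 699, 592 and 722 in GM, 412, 377 and 468 against 636, 597 and 707 in PIO, and 378, 336 and 311 against 685, 588 and 653 in PIO+GM. No library at 24 h fell within the 6 h range, and the log2 fold changes were 0.54 ± 0.13, 0.68 ± 0.13, 0.62 ± 0.13 and 0.91 ± 0.13. The readthrough model Gm49369 shares 31.5% of the exon bases of Ctsd on its own strand. Ctsz, an exopeptidase, went from 37.1 to 74.6 CPM at 6 h to 88.4 to 110 CPM at 24 h, with log2 fold changes of 0.86, 0.88, 0.87 and 1.24. Tpp1, which trims tripeptides from the amino end of proteins and is lost in a childhood neuronal storage disease, went from 64.7 to 86.8 CPM to between 102 and 130 CPM (0.59 to 0.72). Ctsb rose less, from a median of 387 CPM (306 to 446) to 540 CPM (476 to 590), with log2 fold changes of 0.35 ± 0.11, 0.45 ± 0.11, 0.44 ± 0.11 and 0.60 ± 0.11, and 16.3% of its exon bases lie in Fdft1 on the other strand. Its call in CTRL was lost without CTRL 6 h replicate 3 or CTRL 24 h replicate 1 or 3 (0.27 to 0.33, adjusted p up to 0.118), and that in GM without GM 6 h replicate 2 (0.40, adjusted p = 0.0504).

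None of the other 4 proteases was called higher. Ctsl held 481, 500 and 359 CPM in CTRL at 6 h and 381, 277 and 403 CPM at 24 h, and 442, 676 and 425 against 362, 288 and 361 CPM in PIO. Its log2 fold changes were all below 0, at -0.34, -0.24, -0.61 and -0.52, and only the PIO value passed (adjusted p = 0.0311). It was not called without PIO 6 h replicate 2, the library at 676 CPM (-0.36, adjusted p = 0.229), or without PIO 24 h replicate 1, 2 or 3 (-0.66 to -0.50). Of the exon bases of Ctsl, 28.2% lie in a gene on the opposite strand and 6.4% in one on its own strand. Ctss, a protease of antigen-presenting cells, spanned 3.86 to 11.8 CPM at 6 h and 4.9 to 21.1 CPM at 24 h, with log2 fold changes of 0.53 to 0.88 and standard errors of 0.44. Ctsk, the collagen-degrading protease of osteoclasts, and Ctsh, an aminopeptidase, had ranges that overlapped between the times over all 12 libraries, with log2 fold changes of -0.60 to 0.10 and -0.01 to 0.40. In PIO+GM alone Ctsk held 38.6, 40.2 and 31.3 CPM at 6 h and 26.6, 24.8 and 21.5 CPM at 24 h, without overlap, and its -0.60 was not called (adjusted p = 0.0626).

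**Figure D3:**
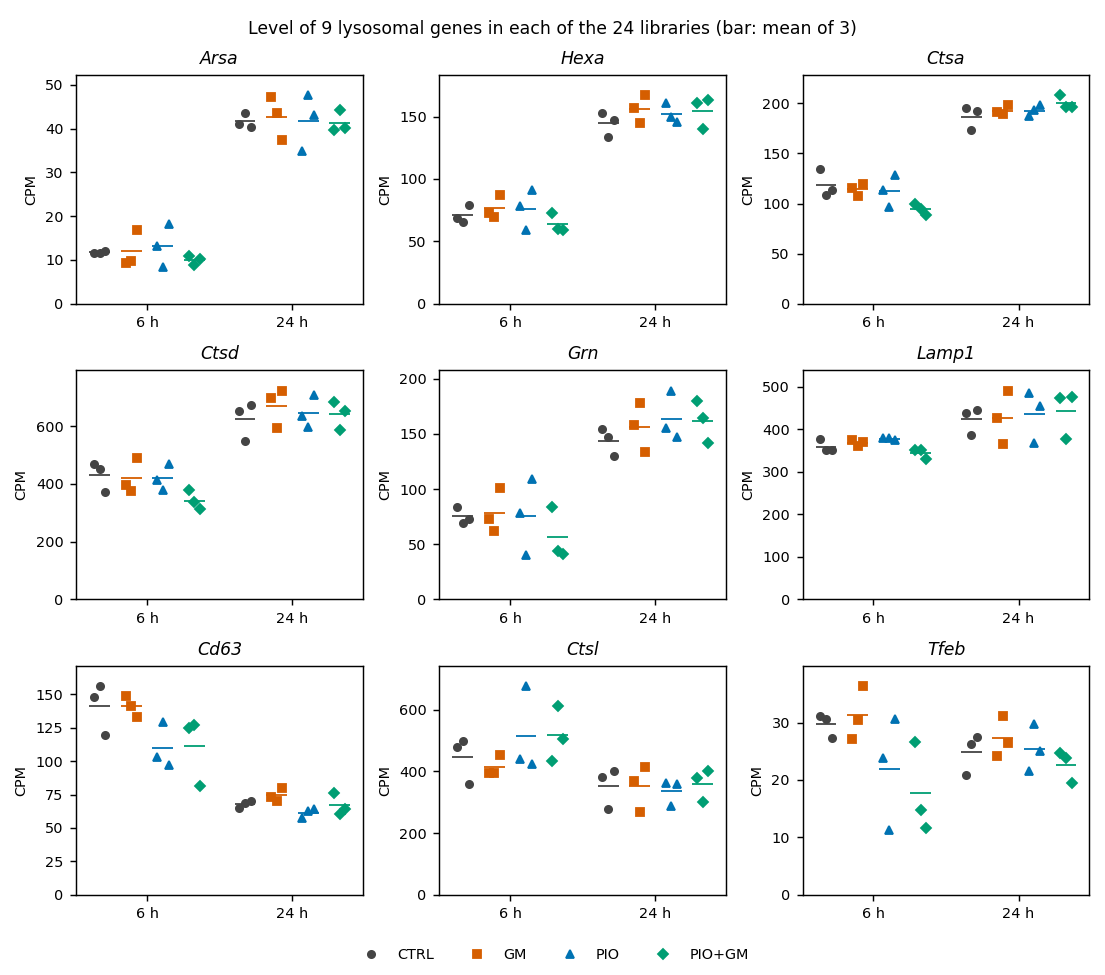
Level in CPM (y axis, from 0) of 9 lysosomal genes in each of the 24 libraries, at 6 h and 24 h (x axis), by treatment (colour and shape). Points are single libraries and bars the mean of 3. Arsa, Hexa, Ctsa, Ctsd and Grn were higher in every library at 24 h, Cd63 was lower in every one, and Lamp1, Ctsl and Tfeb overlapped between the times.

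Glycosidases cut sugars from glycoproteins and glycolipids, and 3 of 7 were higher at 24 h in CTRL, 5 in GM, 5 in PIO and 6 in PIO+GM. Hexa, the alpha subunit of the hexosaminidase lost in Tay-Sachs disease, held 68.3, 65.4 and 79.4 CPM in CTRL at 6 h and 153, 134 and 147 CPM at 24 h. In GM it went from 72.6, 69.8 and 87.2 to 157, 145 and 167 CPM, in PIO from 78, 59.1 and 91.4 to 161, 150 and 146 CPM, and in PIO+GM from 72.5, 60.2 and 59.3 to 161, 140 and 163 CPM. The level about doubled in each treatment, without overlap, at 1.03 ± 0.14, 1.03 ± 0.14, 1.00 ± 0.14 and 1.27 ± 0.14 on the log2 scale. Glb1, the beta-galactosidase, went from 56.2 to 79.4 CPM at 6 h to 85.4 to 136 CPM at 24 h, with log2 fold changes of 0.74, 0.74, 0.72 and 1.07. Gusb, the beta-glucuronidase, went from 34.3 to 47.9 CPM to between 50.4 and 65.6 CPM (0.47 to 0.64), and its PIO value was no longer called without PIO 6 h replicate 2 (0.38, adjusted p = 0.0606) or PIO 24 h replicate 1 (0.41, adjusted p = 0.0536).

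Gaa, which degrades glycogen, and Man2b1, an alpha-mannosidase, passed in GM, PIO and PIO+GM and not in CTRL, where the log2 fold changes were 0.48 ± 0.21 and 0.39 ± 0.15. In PIO+GM they were 0.96 ± 0.21 and 0.83 ± 0.15. The GM calls of both genes were lost in each fit without 1 of the 6 libraries (0.50 to 0.69 for Gaa and 0.40 to 0.49 for Man2b1), and the PIO call of Gaa without PIO 6 h replicate 2 (0.40) or PIO 24 h replicate 2 (0.64). Neu1, the lysosomal sialidase, passed only in PIO+GM (0.60 ± 0.14), beside 0.27, 0.37 and 0.34 in the others. Gla was near level, at -0.17 to -0.15 with 95% intervals between -0.62 and 0.30.

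Lipid enzymes and their activators were called in equal number in each treatment, 3 of 7, but not as the same genes. Smpd1, the acid sphingomyelinase, and Ppt1, which removes fatty acids from proteins, rose in all 4, by 0.51 to 0.77 and by 0.45 to 0.70 on the log2 scale. Smpd1 spanned 45.5 to 71.8 CPM at 6 h and 67.1 to 109 CPM at 24 h, and Ppt1 54.5 to 99.2 and 90.8 to 131 CPM, so both overlapped slightly between the times. Of their 8 calls, 3 were kept whichever library was left out, those of Ppt1 in CTRL and GM and of Smpd1 in PIO+GM. Smpd1 was not called in PIO without PIO 6 h replicate 2 or PIO 24 h replicate 1 or 3 (0.34 to 0.48), in CTRL without CTRL 6 h replicate 2 or CTRL 24 h replicate 3 (0.50 in both), and in GM without GM 6 h replicate 2 or GM 24 h replicate 3 (0.57 and 0.49). Ppt1 was not called in PIO without PIO 6 h replicate 1 or 3 or PIO 24 h replicate 1 or 3 (0.33 to 0.47), or in PIO+GM without PIO+GM 6 h replicate 1 or PIO+GM 24 h replicate 1 or 3 (0.32 to 0.45).

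Psap rose in PIO (0.50 ± 0.14) and PIO+GM (0.75 ± 0.14), and in CTRL and GM its log2 fold changes of 0.35 and 0.36 had adjusted p-values of 0.0594 and 0.0579. Its level nonetheless separated the times completely, from 395 to 646 CPM at 6 h and from 718 to 904 CPM at 24 h. Gm2a, the activator that presents gangliosides to hexosaminidase, rose in CTRL (0.41 ± 0.14) and GM (0.56 ± 0.14) and stood at 0.30 and 0.35 in PIO and PIO+GM. The PIO call of Psap was lost without PIO 6 h replicate 2 (0.37, adjusted p = 0.0648), and the CTRL call of Gm2a without CTRL 6 h replicate 1 or 3 or CTRL 24 h replicate 1 or 3 (0.31 to 0.40). Lipa, the acid lipase of cholesteryl esters, Asah1, the acid ceramidase, and Pla2g15, a phospholipase, did not pass in any treatment. Their log2 fold changes were 0.31 to 0.48, -0.28 to -0.02 and -0.06 to 0.50.

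Of the 4 membrane proteins, 1 was higher at 24 h in CTRL and in PIO+GM and 0 in GM and PIO, and 1 fell in all 4 treatments. Lamp1 held 377, 350 and 350 CPM in CTRL at 6 h and 439, 387 and 444 CPM at 24 h, 374, 360 and 370 against 426, 365 and 490 in GM, 379, 379 and 375 against 484, 367 and 454 in PIO, and 351, 350 and 329 against 473, 378 and 476 in PIO+GM. Libraries overlapped in GM and PIO, and only PIO+GM passed (0.36 ± 0.12, adjusted p = 0.022), beside 0.24, 0.21 and 0.20. That call was lost without PIO+GM 6 h replicate 2 or 3 or PIO+GM 24 h replicate 1 or 3 (0.31 to 0.38, adjusted p up to 0.0814). Lamp2 was called nowhere, at 0.10, 0.17, -0.22 and -0.12, and the 3 highest of its 12 libraries at 6 h were PIO replicate 2 at 599, PIO+GM replicate 3 at 571 and PIO+GM replicate 2 at 542 CPM. Without the first or the second of these, the values in PIO and PIO+GM were both 0.01. Scarb2, which carries the enzyme glucocerebrosidase to lysosomes, passed only in CTRL (0.36 ± 0.10, adjusted p = 0.01), beside 0.18 to 0.21 in the others.

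Cd63, a tetraspanin of late endosomes, lysosomes and exosomes, was lower at 24 h in every library. At 6 h it held 148, 156 and 120 CPM in CTRL, 149, 141 and 133 in GM, 103, 129 and 97.5 in PIO, and 125, 127 and 81.3 in PIO+GM. At 24 h it held 64.9, 68.9 and 70.2 CPM in CTRL, 73, 70.2 and 79.9 in GM, 57.5, 62.9 and 64.2 in PIO, and 76.4, 60.2 and 64 in PIO+GM. The highest library at 24 h and the lowest at 6 h lay close, at 79.9 and 81.3 CPM. The log2 fold changes were -1.06 ± 0.15 in CTRL (adjusted p = 6.05e-05), -0.92 ± 0.15 in GM, -0.84 ± 0.15 in PIO and -0.73 ± 0.15 in PIO+GM.

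All 4 channel and transport proteins were higher in PIO+GM, 3 in CTRL, 3 in PIO and 1 in GM. Mcoln1, a calcium channel of the lysosomal membrane, went from 16.4 to 32.3 CPM at 6 h to 30.2 to 40.6 CPM at 24 h, by 0.53 ± 0.15, 0.33 ± 0.15, 0.49 ± 0.15 and 0.80 ± 0.15 on the log2 scale, with GM not called. Cln3, a membrane protein lost in juvenile Batten disease, went without overlap from 7.38 to 16.8 CPM to 17.4 to 21.1 CPM, by 0.55, 0.48, 0.65 and 0.89, GM again not called (adjusted p = 0.0602), and Apobr covers 13.2% of its exon bases on the opposite strand. Npc2, which hands cholesterol to the membrane transporter Npc1, went from 119 to 176 CPM to 179 to 229 CPM (0.44, 0.56, 0.18 and 0.43, with PIO not called). Npc1 was called in PIO (0.38 ± 0.10) and PIO+GM (0.32 ± 0.10) and stood at 0.17 and 0.11 in CTRL and GM.

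Several of these calls were lost in fits that left out 1 library, some of them whichever of several libraries was left out. Without PIO 6 h replicate 2 the PIO calls of Mcoln1 (0.37), Cln3 (0.49) and Npc1 (0.27) were lost, as was that of Mcoln1 without PIO 6 h replicate 1 (0.45) or PIO 24 h replicate 2 (0.41) and that of Cln3 without PIO 24 h replicate 1 (0.57). In CTRL, Mcoln1 lost its call without CTRL 6 h replicate 3 (0.47), Npc2 without CTRL 24 h replicate 3 (0.39), and Cln3 without CTRL 6 h replicate 2 or 3 or CTRL 24 h replicate 1 or 3 (0.46 to 0.53). In PIO+GM, Npc1 lost its call without PIO+GM 6 h replicate 2 or 3 or PIO+GM 24 h replicate 1 (0.28 to 0.30), and Npc2 without PIO+GM 6 h replicate 3 (0.31).

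The 2 regulators differed. Grn encodes progranulin, a secreted protein that is cut into granulins in the lysosome. It held 84, 69.1 and 72.9 CPM in CTRL at 6 h and 154, 147 and 130 CPM at 24 h, 73.2, 61.7 and 101 against 158, 178 and 134 in GM, 78.2, 39.9 and 109 against 155, 189 and 147 in PIO, and 84, 43.5 and 41.4 against 180, 164 and 142 in PIO+GM. It rose without overlap, by 0.93 ± 0.28, 0.99 ± 0.28, 1.11 ± 0.28 and 1.52 ± 0.29 on the log2 scale. Its CTRL call was lost without CTRL 6 h replicate 2 or 3 or CTRL 24 h replicate 1 (0.87 to 0.91, adjusted p up to 0.079), and its GM call without GM 6 h replicate 1 or 2 or GM 24 h replicate 2 (0.85 to 0.94, adjusted p up to 0.0894).

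Tfeb, the transcription factor that binds the E-box printed above and is controlled mainly by its entry into the nucleus, did not rise as RNA. It held 31.1, 30.7 and 27.4 CPM in CTRL at 6 h and 20.8, 26.3 and 27.5 CPM at 24 h, 27.1, 30.5 and 36.3 against 24.1, 31.1 and 26.5 in GM, 23.9, 11.2 and 30.7 against 21.6, 29.7 and 25 in PIO, and 26.7, 14.8 and 11.7 against 24.7, 23.9 and 19.4 in PIO+GM. The 3 lowest of the 24 libraries were PIO 6 h replicate 2 and PIO+GM 6 h replicates 3 and 2, and Tfeb had the highest GC content of the 39 genes, 63.2%. Its log2 fold changes were -0.26 ± 0.28, -0.20 ± 0.28, 0.21 ± 0.28 and 0.35 ± 0.29, none of them called. In PIO the value was -0.10 without PIO 6 h replicate 2, and in PIO+GM it was 0.78 and called (adjusted p = 0.0408) without PIO+GM 6 h replicate 1.

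The promoter core was spread over genes that rose and genes that did not. It was found in 5 of the 13 genes with a window that were higher at 24 h in all 4 treatments (38.5%), in 10 of 24 that were higher in at least 1 (41.7%) and in 2 of 10 that were higher in none (20%), namely Ctsl and Gla. Hexa, Galns, Idua, Ctsz, Tpp1 and Grn, which rose in all 4 treatments, have windows without it or, for Galns, no window here. No match says only that the letters are not in the window.

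Other genes of the lysosome, from lists made by hand, were read beside the 39. Of 24 further hydrolases and activators, 13 were higher and 2 lower at 24 h in CTRL, 10 and 1 in GM, 13 and 1 in PIO, and 17 and 1 in PIO+GM. In PIO+GM, Dnase2a, the acid DNase, rose by 1.41 ± 0.18 and Ctsf, a cysteine protease, by 0.86 ± 0.11 on the log2 scale. Of 17 further membrane proteins, 3, 3, 5 and 7 were higher in CTRL, GM, PIO and PIO+GM, and 0, 0, 3 and 1 were lower. Among them the amino acid sensor Slc38a9 (0.79 ± 0.12) and the sialic acid exporter Slc17a5 (0.65 ± 0.14) rose in CTRL, and the cystine exporter Ctns in PIO+GM (0.59 ± 0.13).

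Of all genes, 14.8, 12.5, 13.2 and 17.6% were higher and 13.2, 11.7, 15.8 and 17% lower in CTRL, GM, PIO and PIO+GM, and no difference between the lists was tested. Of 16 subunits and accessory proteins of the vacuolar ATPase, which acidifies the lysosome, 1 was higher in CTRL and in PIO+GM and 0 in GM and PIO, while 3, 2, 3 and 2 were lower. Atp6v0d1 rose in PIO+GM (0.43 ± 0.12), Atp6ap2 fell by 0.58 in PIO and Atp6v1b2 fell by 0.46 in GM, both on the log2 scale. Of 15 genes that deliver enzymes to the lysosome, 2 were higher and 2 lower in CTRL, 2 and 1 in GM, and 3 and 3 in PIO and PIO+GM, including Gnptab, which makes the mannose 6-phosphate tag (-0.57 ± 0.13 in PIO+GM), the sorting receptor Sort1 (0.45 ± 0.10 in GM) and the retromer subunit Vps35 (-0.75 ± 0.19 in PIO+GM).

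Of 20 genes of the TFEB family and of nutrient sensing at the lysosome, 2, 2, 2 and 4 were higher and 3, 3, 5 and 4 lower in CTRL, GM, PIO and PIO+GM. In CTRL, Fnip2 (-0.83 ± 0.15) and the GTPase Rragc (-0.41 ± 0.08) fell and Lamtor2, a scaffold subunit for those GTPases, rose (0.65 ± 0.12). Tfe3 and Mitf, the relatives of Tfeb, were called in none, at -0.45 to 0.09 and -0.03 to 0.24. Of 22 autophagy and lysophagy genes, 3, 2, 2 and 3 were higher and 1, 2, 4 and 3 lower. Gabarap (0.71 ± 0.12 in GM) and Wipi1 (1.44 ± 0.26 in PIO+GM), both of autophagosome formation, rose, and Atg16l1 fell in CTRL (-0.56 ± 0.13).

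**Figure D4:**
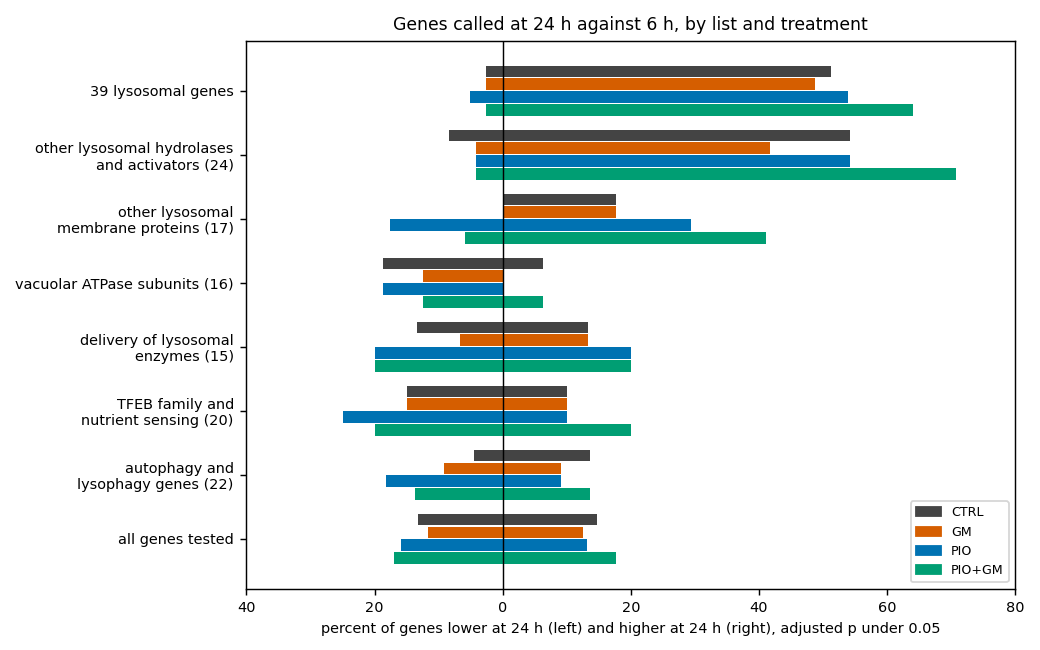
Percent of the genes of each list that were higher (right) or lower (left) at 24 h than at 6 h with an adjusted p under 0.05, in each treatment (colour). The 39 lysosomal genes, the 24 further hydrolases and activators and the 17 further membrane proteins extend to the right beyond all genes tested, at the bottom, in every treatment. The membrane proteins do so by less, and the 16 vacuolar ATPase subunits do not.

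Markers of several cell types were read beside the lysosomal genes, against the same shares of all genes, and several lists lay near or below those shares. The summed level of 16 macrophage markers, cells rich in lysosomes, spanned 78.4 to 193 CPM (median 108) at 6 h and 116 to 348 CPM (median 185) at 24 h, with 2, 2, 4 and 5 of them higher and 0, 0, 1 and 1 lower in CTRL, GM, PIO and PIO+GM. Lyz2 rose in all 4, by 2.04 to 2.78 on the log2 scale, C1qa by 1.45 to 1.95 and, in PIO+GM, C1qb by 1.30, while the defining receptor Csf1r, at a median of 15.1 CPM at 6 h and 18.3 CPM at 24 h, passed in none. The sum of 8 Schwann cell markers went from 384 to 2830 CPM (median 1340) to 353 to 925 CPM (median 511), with 3, 5, 3 and 3 lower and 1 higher in PIO+GM. Mag (-2.78 in PIO+GM) and Pmp22 (-2 in GM), both of myelin, were among those lower. Their part in the rise of the lysosomal genes was not tested.

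Fibroblast and mesenchyme markers were higher in 4, 3, 2 and 3 and lower in 0, 0, 1 and 1 of 10, hair cell markers higher in 1, 1, 0 and 0 and lower in 1, 2, 1 and 2 of 12. Supporting cell markers were higher in 1, 1, 1 and 2 of 12, and neuron markers lower in 1, 1, 0 and 2 of 8. The calls of smallest p were those of Pdgfra (0.81 in PIO), Tbx18 (1.17 in PIO+GM) and Postn (1.02 in GM) of mesenchyme, Myo6 (0.76 in CTRL), Calb2 (-1.67 in PIO+GM) and Slc17a8 (-1.62 in GM) of hair cells, and Gjb6 (1.55) and Gjb2 (1.33) of supporting cells in PIO+GM, all as log2 fold changes. Of neurons, Tubb3 (-1.76) and Nefh (-2.72) were lower in PIO+GM. Of 9 osteoclast markers 6 passed the filter, 1 of them lower in CTRL, GM and PIO+GM (Itgb3 in GM, -1.21). The defining osteoclast markers Calcr and Ocstamp lay between 0 and 0.617 CPM, where 3 counts, the limit that a count of 0 allows, correspond to 0.193 to 0.416 CPM.

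No lysosomal gene passed in any drug comparison in the main fit, edgeR on all 24 libraries without a replicate block or GC correction. With gentamicin, 0 of 39 were called in GM against CTRL at 6 h (0% of all genes called), in PIO+GM against PIO at 6 h (0%), in GM against CTRL at 24 h (0.0123%) or in PIO+GM against PIO at 24 h (0.0735%). With pioglitazone, 0 were called in PIO against CTRL at 6 h (0.337%), in PIO+GM against GM at 6 h (1.32%), in PIO against CTRL at 24 h (0.153%) or in PIO+GM against GM at 24 h (0.11%). With so few genes called in all, a count of 0 among 39 is near the background. At an unadjusted p under 0.05 there were 0, 4, 0 and 0 genes in the gentamicin comparisons and 3, 9, 1 and 3 in those of pioglitazone, in the order given. The shares of all genes were 1.49, 3.06, 1.67 and 2.59% for gentamicin and 15.2, 25, 9.93 and 7.47% for pioglitazone, beside 10.3% of the 39 in PIO+GM against PIO at 6 h and 7.69, 23.1, 2.56 and 7.69% in those of pioglitazone. The DESeq2 Wald test called 1 gene in 1 of the 8, Ctsz in PIO+GM against GM at 6 h (-0.49, adjusted p = 0.0254), where it called 8.15% of all genes. Other edgeR fits, with a replicate block, a GC trend removed or both, called 2 to 4 of the 39 in some pioglitazone comparisons. In those fits 1.31 to 12.2% of all genes were called, and the genes are named in the last section.

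For gentamicin alone against CTRL, fitted changes were small and their intervals wide for some genes. At 6 h the log2 fold changes of the 39 ran from -0.29 to 0.22 with a median of 0, and the smallest unadjusted p-values were those of Scarb2 (0.17 ± 0.10, unadjusted p = 0.102 from the edgeR fit), Arsb (-0.29 ± 0.19) and Ppt1 (-0.21 ± 0.16). At 24 h they ran from -0.10 to 0.36 with a median of 0.02, led by Ctsk (0.36 ± 0.24), Ctsz (0.14 ± 0.15) and Tpp1 (-0.10 ± 0.11). Lamp1 differed by 0.04 at 6 h (95% interval -0.21 to 0.28), whereas the 95% intervals of the 39 together reached from -0.75 to 1.1 at 6 h and from -0.70 to 1.09 at 24 h. In PIO+GM against PIO at 6 h no gene passed and the median of the 39 was -0.18, against 0 over all genes. The smallest p-values there were those of Mcoln1 (-0.39 ± 0.15), Ctsa (-0.26 ± 0.10) and Ctsd (-0.29 ± 0.13), and the correlation of fold change with GC content across genes was -0.46. At 24 h the same comparison had a median of 0, with Ctsk at -0.31 ± 0.24, Lamp2 at 0.18 ± 0.19 and Cd63 at 0.12 ± 0.15.

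The lowest adjusted p-values came from PIO+GM against GM at 6 h. Ctsz held 51.8, 48.4 and 74.6 CPM in GM and 47.1, 37.8 and 37.1 CPM in PIO+GM. Tfeb held 27.1, 30.5 and 36.3 against 26.7, 14.8 and 11.7 CPM, and Ctsa 116, 108 and 120 against 99.8, 94.5 and 89 CPM. The groups did not overlap for any of these 3, with log2 fold changes of -0.52 ± 0.15 (adjusted p = 0.0732), -0.81 ± 0.29 (adjusted p = 0.108) and -0.28 ± 0.10 (adjusted p = 0.111), none of them called in the main fit. How many of all genes separate in this way is not given for the drug comparisons, so separation here and below is only a description. The median of the 39 was -0.15, against -0.02 over all genes, and the fold change correlated with GC content at -0.62 across genes. Without PIO+GM 6 h replicate 1, 11 genes were called, Ctsz, Tfeb and Ctsa among them (-0.65, -1.25 and -0.34), but 24.4% of all genes were called too, against 28.2% of the 39. GC content correlated at 0.58 across genes with the deviation of that library from its group. After removal of the GC trend Ctsa stood at 0.01.

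Neu1, Glb1 and Man2b1 were among the genes of smallest p in the pioglitazone comparisons at 24 h, and none of them passed in the main fit. Neu1 held 40.7, 39.4 and 47.3 CPM in CTRL at 24 h against 56.9, 53.7 and 55.8 CPM in PIO, and 45.5, 37.9 and 48.8 CPM in GM against 54.6, 51.1 and 58.8 CPM in PIO+GM. The groups did not overlap in either comparison, a separation whose share over all genes is not given here. The log2 fold changes were 0.38 ± 0.14 (adjusted p = 0.32) and 0.32 ± 0.14 (adjusted p = 0.592), and at 6 h PIO against CTRL gave 0.31 ± 0.14 (adjusted p = 0.289). Glb1 held 109, 85.4 and 110 CPM in CTRL at 24 h and 125, 107 and 124 CPM in PIO, and 103, 86.6 and 111 CPM in GM against 135, 109 and 136 CPM in PIO+GM (0.23 ± 0.12 and 0.34 ± 0.12), overlapping in both comparisons. By replicate number, each pool with pioglitazone lay above the pool without it. Whether same-numbered pools belong together is not given in the sources used here. Man2b1 stood at 0.25 ± 0.15 in both comparisons. In PIO+GM against GM at 6 h the 3 genes stood at 0.09, 0.01 and -0.13. With a GC trend removed Neu1 (0.49, adjusted p = 0.0399) and Man2b1 (0.35, adjusted p = 0.0489) passed in PIO against CTRL at 24 h, where 2.44% of all genes were then called and their median stood at 0.10. With a replicate block added to that edgeR fit, Glb1 passed in PIO against CTRL at 24 h (0.34, adjusted p = 0.0186). It also passed in PIO+GM against GM at 24 h (0.41, adjusted p = 0.0199). Neu1 passed in both as well, where 8.47 and 1.31% of all genes were called.

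Other values at the head of the pioglitazone comparisons did not pass. In PIO against CTRL at 6 h, Scarb2 stood at 0.24 ± 0.10 (125 to 138 CPM in CTRL and 143 to 162 CPM in PIO, without overlap) and Cd63 at -0.37 ± 0.15. In PIO+GM against GM at 24 h, Ctsk held 32.2, 48.3 and 36.5 CPM in GM and 26.6, 24.8 and 21.5 CPM in PIO+GM, also without overlap, at -0.68 ± 0.24 (adjusted p = 0.455).

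**Figure D5:**
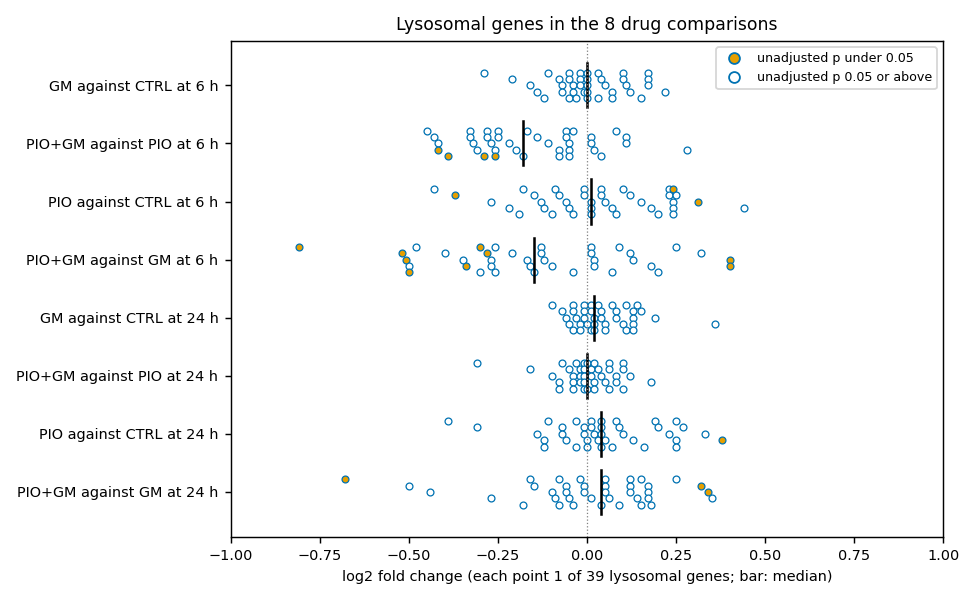
Log2 fold change (x axis) of each of the 39 lysosomal genes in the 8 drug comparisons. Each point is 1 gene, orange points have an unadjusted p under 0.05, the bar is the median, and no gene had an adjusted p under 0.05 in this main fit. In the comparisons of PIO+GM with PIO and with GM at 6 h the medians are -0.18 and -0.15, against 0 and -0.02 over all genes.

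Tests of differences between effects called 0 of 39 genes as well. These were the interaction of gentamicin with pioglitazone at 6 h and at 24 h, and the interactions of gentamicin and of pioglitazone with time, in each of which 0% of all genes were called. At an unadjusted p under 0.05 there was 1 lysosomal gene in the first, Mcoln1 (-0.54 ± 0.21), and 0 in the others, and DESeq2 called 0 in all 4. Whether the larger medians in PIO+GM than in CTRL over time differ was not tested.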

How the data were processed

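Total RNA was sequenced from 24 libraries of mouse OC explants with a stranded kit. According to the study's methods and the labels, the authors aligned reads with STAR to mm10 and counted those starting in a RefSeq exon with QuasR. Use of strand and of reads with several matches is not given in the sources used here. The deposited values are raw counts per gene, with the gene's length. Of 24454 genes, 24374 had a symbol.

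Counts were fitted with the quasi-likelihood test of edgeR 4.0.16 (R 4.3.3) after filterByExpr and TMM normalisation, with 8 group means estimated together over all 24 libraries. Benjamini-Hochberg adjustment ran over all 16317 genes tested, with a threshold of 0.05. CPM used TMM library sizes, and RPKM also the deposited length. The ± values are standard errors of log2 fold changes. The 12 comparisons were 8 of drug and 4 of time, beside 4 interactions. The step was tested on simulated data. Intervals and floors cover counting error only where they come from counts. Same-numbered replicates were not taken as pairs in the main fit. Exon overlap was read from GENCODE M21 models, and RefSeq promoter windows from GRCm38.p6. Alternatives were DESeq2 1.42.0, its size factors, other filters, a GC trend removed, a replicate block and leaving out libraries.

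The 39 genes and the lists beside them were chosen with earlier results of these data known. Named with values were the lysosomal genes called in any comparison or interaction, the 3 of smallest p in each comparison, the 6 highest and 3 lowest by median RPKM, and Lamp1, Lamp2, Ctsb, Ctsd and Tfeb. From each of the 13 other lists, up to 3 called genes of smallest p were named, with defining markers, except for some that are not reported here. Asah1, Ctsh, Ctss, Lipa and Pla2g15 fall outside this rule and were added so that every gene is accounted for.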

Additional observations from a re-analysis of the deposited data

How the results depend on the processing

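For PIO+GM against GM at 6 h, where no lysosomal gene was called, 1 was called by the DESeq2 Wald test (Ctsz), 3 with a replicate block within time (Cd63, Cln3 and Ctsz), and from 0 to 11 when 1 library was left out, the 11 without PIO+GM 6 h replicate 1. These fits called 8.15, 12.2 and, without that library, 24.4% of all genes, against 2.56, 7.69 and 28.2% of the 39. For PIO against CTRL at 24 h, 2 were called with the GC trend removed (Man2b1 and Neu1) and 4 with the replicate block added (also Glb1 and Pla2g15), where 2.44 and 8.47% of all genes were called, against 5.13 and 10.3% of the 39. That combined fit called 4 in PIO against CTRL at 6 h (Glb1, Hexa, Naglu and Neu1) and 2 in PIO+GM against GM at 24 h (Glb1 and Neu1), where 5.35 and 1.31% of all genes were called, against 10.3 and 5.13% of the 39. Over time, leaving out 1 library gave 16 to 21 calls in CTRL, 14 to 18 in GM, 15 to 26 in PIO and 23 to 28 in PIO+GM, while the share of all genes called ran from 16.1 to 25.8, 13 to 22.5, 16.3 to 36.5 and 20.8 to 36.6%. A block shared between times gave 22, 23, 25 and 27, with 30, 26.6, 30.8 and 36.2% of all genes called. Deviations from the group mean correlated above 0.1 between same-numbered replicates in 9 of 18 pairs at 6 h and 15 of 18 at 24 h. The mean was 0.11 at 6 h and 0.38 at 24 h, against -0.05 and -0.18 between other numbers. What same-numbered pools share is not given in the sources used here.

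Some uncalled values changed sign. With the GC trend removed, Ctsa in PIO+GM against GM at 6 h was 0.01, Lamp2 over time was 0.17 in PIO and 0.25 in PIO+GM, and Tfeb was -0.15 and -0.11. Leaving out both libraries of fewest counts, a choice made after seeing the data, gave 0.01 for Lamp2 in both and -0.11 for Tfeb in PIO. With 1 library left out, Lamp2 ran from -0.32 to 0.01 in PIO and from -0.30 to 0.01 in PIO+GM, and Tfeb from -0.10 to 0.54 in PIO, crossing 0 without PIO 6 h replicate 2 (PIO) or PIO+GM 6 h replicate 3 (PIO+GM). The cause was not tested. Removing the GC trend moved the median of all genes in PIO against CTRL at 24 h to 0.10, and dropping the filter on low counts moved that over time in PIO to -0.13.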
